A study of Homo sapiens with 8 samples.

Results

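The transcripts described here stood at like levels in a TRAIL-resistant Jurkat clone and its parent line without drug, and were lower in the clone after SAHA at the higher dose. They comprise 208 array probes out of 22184, and 199 of them carry a gene name, for 190 genes. Jurkat is a human T cell leukaemia line. The samples fall into 4 groups of 2 arrays: TR1 without drug, TR1 after 12 h with 0.5 µM SAHA, TR1 after 12 h with 1 µM SAHA, and the parent line without drug, called WT here. TR1 is labelled a single clone, resistant to TRAIL, and was raised by keeping Jurkat cells under 1000 ng/mL TRAIL for 12 weeks, while WT is labelled TRAIL sensitive. TRAIL is a ligand that kills cells through death receptors, and SAHA (suberoylanilide hydroxamic acid, vorinostat) inhibits histone deacetylases. The labels call the samples biological duplicates without describing the cultures further, so p-values measure only the spread between these duplicates. WT was not given SAHA in these samples, so nothing here shows its response to the drug.

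The members were chosen with the measured values. On log2 signals that were quantile-normalised over all probes, a member had a detection p-value below 0.05 on both untreated TR1 arrays and differed by less than 0.3 between untreated TR1 and untreated WT. At 1 µM it was lower than in untreated TR1 by 0.7 or more, with both 1 µM arrays below both untreated TR1 arrays. Of 3640 probes that met all parts but the size of the fall, 208 met that too. The differences between 1 µM and untreated TR1, and between the untreated lines, are therefore descriptions without a test. On the scale of the rule the 208 were lower at 1 µM by 0.704 to 1.91, with a median of 0.822, and 42 of them by 1 or more. Just inside the limit were LANCL2 at -0.708, GAS2L1 at -0.707 and CALR at -0.704, and just outside it were DCTPP1 at -0.697, MED24 at -0.696 and CERKL at -0.695.

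Histone deacetylases remove acetyl groups from histones and other proteins, and blocking them raises acetylation over many genes while the mRNA of other genes is lowered. MYC is a transcription factor that drives growth. Genes often named as its targets make ribosomes in the nucleolus, modify transfer RNA and feed nucleotide synthesis. T cells respond through a receptor complex (the CD3 chains), kinases such as ZAP70 and CSK, phosphatases such as PTPN6, and adhesion receptors built of ITGAL and ITGB2, and NOTCH1 guides T cell development and is a known oncogene of T cell leukaemia.

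Each array gave a median probe signal of 77.6 to 115 and detected 11922 to 12987 probes (53.7% to 58.5%, detection p-value below 0.05). Of 11 T cell marker genes, 10 were detected on all 8 arrays, among them CD3E, CD3G, LCK and ZAP70. Their summed normalized signal was 26540 to 26580 in untreated TR1, 21770 to 22500 at 0.5 µM, 17950 to 18830 at 1 µM and 23220 to 24460 in untreated WT. CD14, CSF1R, ITGAM, MPO, MS4A1 and PAX5, which define myeloid and B cells, were detected on no array, while CD79A and CD79B of the B cell list and FCGR3A of the myeloid list were detected on all 8. The summed signal of B cell markers was 378.9 to 387.0 in untreated TR1, 303.9 to 306.5 at 0.5 µM, 278.6 to 289.8 at 1 µM and 318.3 to 480.1 in untreated WT. That of NK cell markers, where NCAM1 and PRF1 were detected and GNLY and KLRD1 were not, was 362.7 to 383.6, 453.8 to 467.4, 514.8 to 518.0 and 369.1 to 400.5 in the same order. CD3E, CD3G and ZAP70 are themselves members, and the part of the summed marker signal in the other results was not tested. In such bulk RNA, fewer cells with a transcript and less of it per cell cannot be told apart.

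The 6 promoters printed here show a sequence that was more frequent among the member genes than among all tested genes, the hexamer CACGTG, an E-box that MYC and related factors can bind. POLR1G codes for a subunit of RNA polymerase I, EXOSC5 for a part of the RNA exosome, QTRT1 for an enzyme that modifies transfer RNA, DPH2 for one that modifies translation elongation factor 2, NUP188 for a nuclear pore protein and ZAP70 for a kinase of the T cell receptor. Each stretch holds the 150 bases before the RefSeq start of the gene, 5′ to 3′ on the gene's strand, in GRCh38.p14, with CACGTG in capitals. They lie at chr19:45406494-45406643 (plus strand), chr19:41397360-41397509 (minus strand), chr19:10701289-10701438 (plus strand), chr1:43969860-43970009 (plus strand), chr9:128947549-128947698 (plus strand) and chr2:97713426-97713575 (plus strand). These genes were picked after the positions and values were seen.
POLR1G: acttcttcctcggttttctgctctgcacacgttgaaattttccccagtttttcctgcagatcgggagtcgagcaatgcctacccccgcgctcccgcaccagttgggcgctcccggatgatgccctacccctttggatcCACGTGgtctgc
EXOSC5: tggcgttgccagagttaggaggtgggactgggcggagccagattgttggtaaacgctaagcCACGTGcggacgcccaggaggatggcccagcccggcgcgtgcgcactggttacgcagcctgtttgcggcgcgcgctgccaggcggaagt
QTRT1: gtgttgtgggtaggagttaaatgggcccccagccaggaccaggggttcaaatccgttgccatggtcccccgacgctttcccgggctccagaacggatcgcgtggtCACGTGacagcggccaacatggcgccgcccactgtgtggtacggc
DPH2: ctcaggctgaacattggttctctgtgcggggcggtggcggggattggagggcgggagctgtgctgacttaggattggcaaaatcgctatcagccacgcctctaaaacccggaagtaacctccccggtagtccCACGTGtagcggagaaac
NUP188: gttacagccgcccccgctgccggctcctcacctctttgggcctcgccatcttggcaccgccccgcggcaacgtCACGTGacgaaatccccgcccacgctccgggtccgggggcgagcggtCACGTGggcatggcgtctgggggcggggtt
ZAP70: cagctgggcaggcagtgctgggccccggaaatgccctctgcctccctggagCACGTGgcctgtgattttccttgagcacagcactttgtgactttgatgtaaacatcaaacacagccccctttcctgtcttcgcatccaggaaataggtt

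A RefSeq promoter of 250 bases before to 50 bases after the start was at hand for 147 of the 190 member genes and for 9013 of 10909 tested genes. CACGTG, which reads the same on both strands, stood in 31 of the 147 (21.1%), in 10.1% of the tested genes' promoters and in 7.43% of all 27305 promoters. It began within 30 bases of the start in 17 member genes (11.6%) and in 2.83% of tested genes, a window chosen after the positions were seen. The other motifs, searched on both strands, stood nearer to the tested genes, or below them. CCGGAAG (ETS factors) was in 19.0% of member and 18.7% of tested genes, GGGCGG (SP1) in 74.1% and 67.8%, and CCAAT in 34.7% and 37.2%. CAGATG, another E-box, was in 3.4% of member genes and 9.58% of tested genes, and TGTGGT (RUNX) in 5.44% and 9.64%. The E2F sequences TTTGGCGC and TTTCCCGC were in 0 and 1.36% of member genes, and in 1.05% and 2.67% of tested genes. Median GC content was 65.0% in member and 64.67% in tested promoters. These shares are descriptions of the letters in the window and show no binding.

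The arrays at 0.5 µM had no role in the choice of members, and they answer whether the lower dose moved the same transcripts. The comparison with untreated WT is the least tied to the rule, which held WT within 0.3 of untreated TR1. It differs in line as well as in drug. In this comparison 155 of the 208 members fell and 0 rose. That is 74.5% of members, where 10.7% of the 13407 tested probes were called lower and 11.5% higher (limma, Benjamini-Hochberg adjusted p below 0.05). The median log2 change of the members was -0.56, a fall of 1.47-fold, with a range of -1.68 to -0.05, and over all tested probes the median was -0.02. Both 0.5 µM arrays lay below both WT arrays for 200 members, against a background of 32.4% of tested probes. The call counts rested on both 0.5 µM arrays: 94 members were called without 0.5 µM array A and 82 without array B, while 529 and 579 of all tested probes were called.

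Against untreated TR1, 135 members fell at 0.5 µM and 0 rose, with a median log2 change of -0.55 and a range of -1.47 to -0.18. Over all tested probes 2.78% were called lower and 4.42% higher, and the median was -0.01. The untreated TR1 arrays helped to choose the members, so this comparison is partly tied to the rule. The count was 36 and 16 without untreated TR1 array A or B, and 25 and 14 without 0.5 µM array A or B. Both 0.5 µM arrays lay below both untreated TR1 arrays for 207 members, with 29.8% of tested probes doing so. For 201 members every 1 µM array also lay below every 0.5 µM array, an order found in 12.1% of tested probes and in part set by the rule. Of the 208, 121 were called lower in both comparisons, 34 against WT alone, 14 against untreated TR1 alone and 39 in neither.

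**Figure D1:**
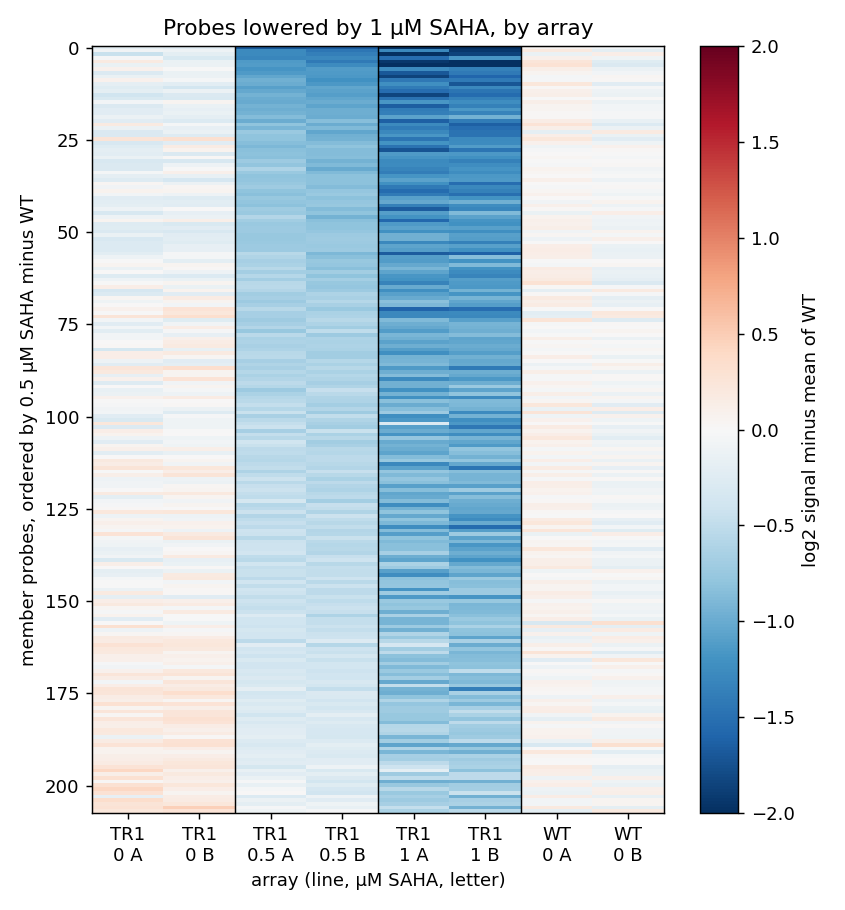
Each row is 1 of the 208 member probes and each column 1 array, coloured by log2 signal minus the mean of the WT arrays; rows run from the lowest to the highest change at 0.5 µM against untreated WT. The 0.5 µM columns are paler than the 1 µM columns and bluer than those of untreated TR1 and WT, and 200 members lay below both WT arrays at 0.5 µM.

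**Figure D2:**
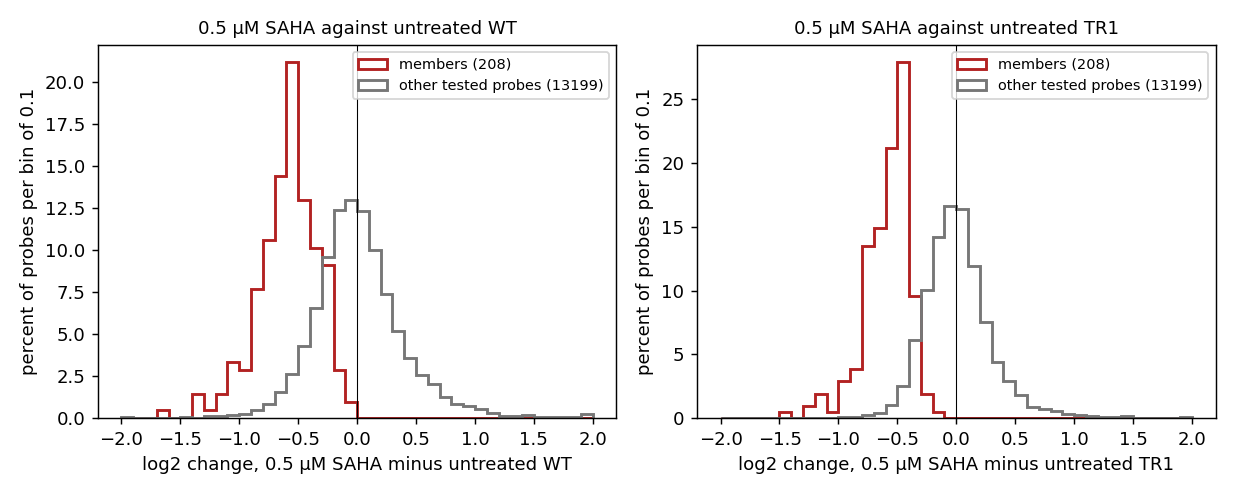
Histograms of the log2 change at 0.5 µM against untreated WT (left) and untreated TR1 (right), as the percent of probes per bin of 0.1, for the 208 members and the other 13199 tested probes; values beyond the axis are drawn in the end bins. The members centre at -0.56 and -0.55, and no member lies above 0.

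In level, the members spanned most of the measured range. Their group means ran from a log2 signal of 6.52 to 13.65 in untreated TR1, 5.59 to 13.07 at 0.5 µM, 5.06 to 12.79 at 1 µM and 6.43 to 13.53 in untreated WT, with medians of 9.72, 9.19, 8.72 and 9.70 in the same order. All but 1 member were detected on both arrays of all 4 groups, and the exception, B4GALT2, was detected on 1 of the 2 arrays at 1 µM. After background correction the members at 1 µM were lower than in untreated TR1 by a median of 0.97 on the log2 scale, a description, with 12.7% of tested probes called lower there. The untreated lines differed by a median of 0.00, with a range of -0.35 to 0.39.

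RGL4, a member of the Ral exchange factor family, had the largest difference of the members at both doses (chr22:23691013-23699168, GRCh38.p14). It had log2 signals of 9.43 and 9.40 in untreated TR1, 7.94 and 7.96 at 0.5 µM, 7.17 and 7.10 at 1 µM, and 9.69 and 9.57 in untreated WT. The groups of TR1 arrays did not overlap, and the 0.5 µM arrays lay 3.21-fold below WT, a log2 change of -1.68 ± 0.10 (SE, limma adjusted p = 8.49e-05). RASGRP2, which activates Rap GTPases ahead of integrin adhesion, had 8.94 and 8.63 in untreated TR1, 7.63 and 7.35 at 0.5 µM, 6.83 and 6.77 at 1 µM, and 9.00 and 8.53 in untreated WT. It fell 2.42-fold at 0.5 µM against WT (-1.28 ± 0.18, limma adjusted p = 0.0026). BIN1, a membrane-bending protein that also binds MYC, fell 2.49-fold there (-1.32 ± 0.15, limma adjusted p = 0.00117).

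The other members with the largest falls at 0.5 µM against untreated WT were of mixed function. IRAK1, a kinase of the toll-like and interleukin 1 receptors, had 10.23 and 10.23 in untreated TR1, 9.32 and 9.20 at 0.5 µM, 8.51 and 8.78 at 1 µM, and 10.31 and 10.40 in untreated WT, and fell 2.14-fold at 0.5 µM against WT (limma adjusted p = 0.000796). PLD6, a phospholipase of the mitochondrial surface, fell 2.28-fold (limma adjusted p = 0.00322), and the chymotrypsin-like protease CTRL 2.22-fold (limma adjusted p = 0.000595). ATAD3B, an ATPase of the mitochondrial inner membrane, fell 2.57-fold (limma adjusted p = 0.0036). Its close copy ATAD3A is also a member and fell 2.08-fold (limma adjusted p = 0.000517), and probes of so similar a pair may share signal. The probe ILMN_1704973, which has no gene name here, fell 2.12-fold (limma adjusted p = 0.000796).

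AVEN, an inhibitor of apoptosis that binds BCL2L1 and APAF1, differed from most members in how its values ran with dose. It had 7.32 and 7.04 in untreated TR1, 6.03 and 6.05 at 0.5 µM, 5.81 and 6.18 at 1 µM, and 7.43 and 7.24 in untreated WT. The arrays of the 2 doses overlapped, and both doses lay below all arrays without drug. The fall at 0.5 µM was 2.46-fold against WT (-1.30 ± 0.15, limma adjusted p = 0.00122) and 2.21-fold against untreated TR1 (limma adjusted p = 0.00518). ATAD3B likewise had 5.96 and 5.79 at 0.5 µM and 5.94 and 5.32 at 1 µM, against 7.17 and 7.13 in untreated TR1. The lowest detected log2 signal per array was 5.01 to 5.23.

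**Figure D3:**
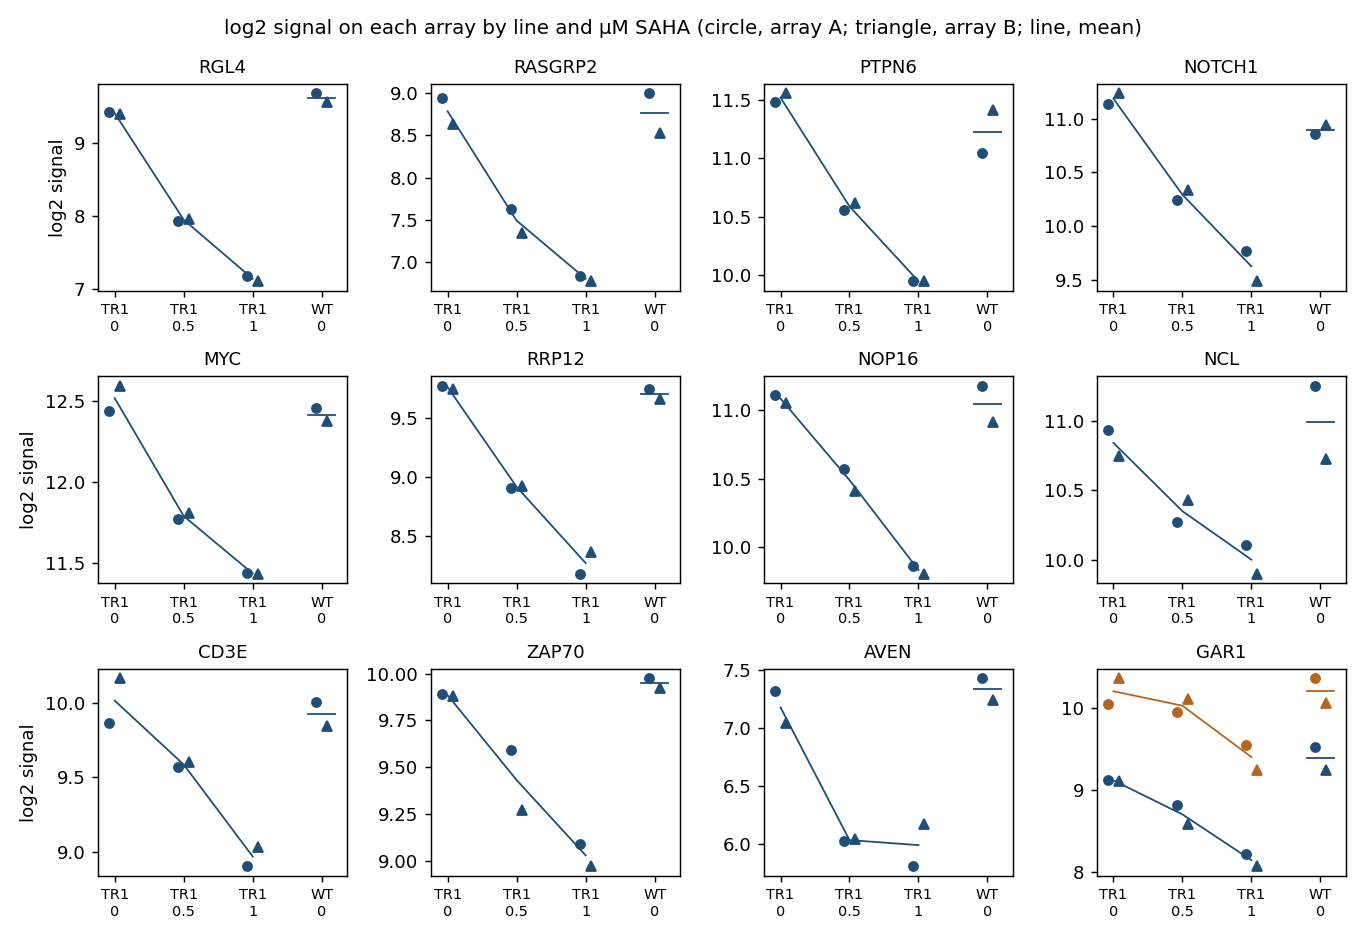
Log2 signal of 12 member genes on each of the 8 arrays, by line and µM SAHA; circles are array A, triangles array B, and lines join or mark group means (GAR1 has 2 member probes, in 2 colours). In RGL4, RASGRP2, PTPN6, NOTCH1, MYC and RRP12 the 3 TR1 groups do not overlap, while the AVEN arrays at 0.5 and 1 µM do.

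NOTCH1 and DTX1 are a receptor and a ubiquitin ligase that acts on it, and both were among the members. NOTCH1 (chr9:136494433-136546048, GRCh38.p14) had 11.14 and 11.24 in untreated TR1, 10.25 and 10.34 at 0.5 µM, 9.76 and 9.48 at 1 µM, and 10.86 and 10.94 in untreated WT. Its TR1 groups did not overlap, and it fell 1.52-fold at 0.5 µM against WT (-0.61 ± 0.12, limma adjusted p = 0.0101). DTX1 had 8.69 and 8.83 in untreated TR1, 7.84 and 7.83 at 0.5 µM, 7.27 and 7.55 at 1 µM, and 9.03 and 8.91 in untreated WT, a fall of 2.20-fold at 0.5 µM against WT (limma adjusted p = 0.00082). MYC had 12.44 and 12.60 in untreated TR1, 11.77 and 11.81 at 0.5 µM, 11.44 and 11.43 at 1 µM, and 12.46 and 12.38 in untreated WT. Every treated MYC array lay below every untreated one, and the fall at 0.5 µM was 1.55-fold against WT (-0.63 ± 0.10, limma adjusted p = 0.00418). TCF3, a basic helix-loop-helix factor of lymphocytes, fell 1.38-fold (limma adjusted p = 0.0217). NOTCH1, MYC and TCF3 were the only members among 29 tested probes of a list of T-lineage and leukaemia transcription factors. Of that list 4 probes fell and 10 rose at 0.5 µM against WT, with a median log2 change of 0.18. Against untreated TR1, 4 fell and 2 rose, with a median of -0.007. Probes that are no members were not required to be near equal in the untreated lines, so for them the WT comparison mixes line and drug. TAL1, which sets the leukaemic programme of Jurkat with RUNX1, GATA3 and MYB, rose by 0.51 at 0.5 µM against WT (limma adjusted p = 0.0207). It is no member and was named after its value was seen.

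The nucleolar list, chosen like the others with earlier results of these data known, held more members than any of the other 14 gene lists. It names 35 genes that make or process ribosomal RNA or assemble ribosomes, many of them known as MYC targets, and 32 of them were tested with 34 probes. Of these, 12 probes of 11 genes were members, beside 208 of all 13407 tested probes. At 0.5 µM against untreated WT, 19 of the 34 fell and 0 rose (55.9%), with a median of -0.47. Leaving out 0.5 µM array A or B gave 10 and 6, and leaving out WT array A gave 11. Against untreated TR1, 8 fell and 0 rose, with a median of -0.34, and leaving out any 1 of those 4 arrays gave 1, and leaving out either 1 µM array gave 5, while the 9 settings with all arrays gave 7 to 16. Among the 22 nucleolar probes that were not members, 9 fell against WT. These probes were not required to be near equal in the untreated lines, so for them that comparison mixes line and drug. Of the 8 nucleolar probes that fell against untreated TR1, 6 were members. NOP56, a core protein of small nucleolar particles and no member, fell by 1.06 on the log2 scale against WT (limma adjusted p = 0.000669). It was named after its value was seen.

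Of the nucleolar members, 10 of 12 probes fell at 0.5 µM against WT, and the changes that follow are against WT. Against untreated TR1, 6 of the 12 were called lower. The probes of NCL, GRWD1, DDX21 and PES1 were not called there (limma adjusted p = 0.137, 0.0646, 0.0524 and 0.125). Neither were those of GAR1 (limma adjusted p = 0.104 and 0.571). RRP12, needed for maturation and export of ribosomal subunits, had 9.78 and 9.75 in untreated TR1, 8.91 and 8.93 at 0.5 µM, 8.17 and 8.36 at 1 µM, and 9.75 and 9.66 in untreated WT. Its duplicates lay close together and its fall was 1.73-fold (-0.79 ± 0.10, limma adjusted p = 0.00198). MRTO4, a large-subunit assembly factor, fell 1.85-fold (limma adjusted p = 0.00392) and BOP1, which works in a complex with PES1, fell 1.66-fold (limma adjusted p = 0.00368). NOP16 fell 1.47-fold, RRP9, a protein of the U3 small nucleolar particle, 1.44-fold, POLR1C, a shared subunit of RNA polymerases I and III, 1.43-fold, and the helicase DDX21 1.44-fold. Nucleolin (NCL) fell 1.56-fold and the histone-binding GRWD1 1.49-fold. PES1 had a log2 change of -0.47 that missed the threshold (limma adjusted p = 0.0691). GAR1, part of the box H/ACA particles that guide pseudouridine formation, has 2 member probes that disagreed at 0.5 µM: ILMN_1681925 fell 1.61-fold (limma adjusted p = 0.00978), and ILMN_1708954 had a change of -0.19 (limma adjusted p = 0.462).

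**Figure D4:**
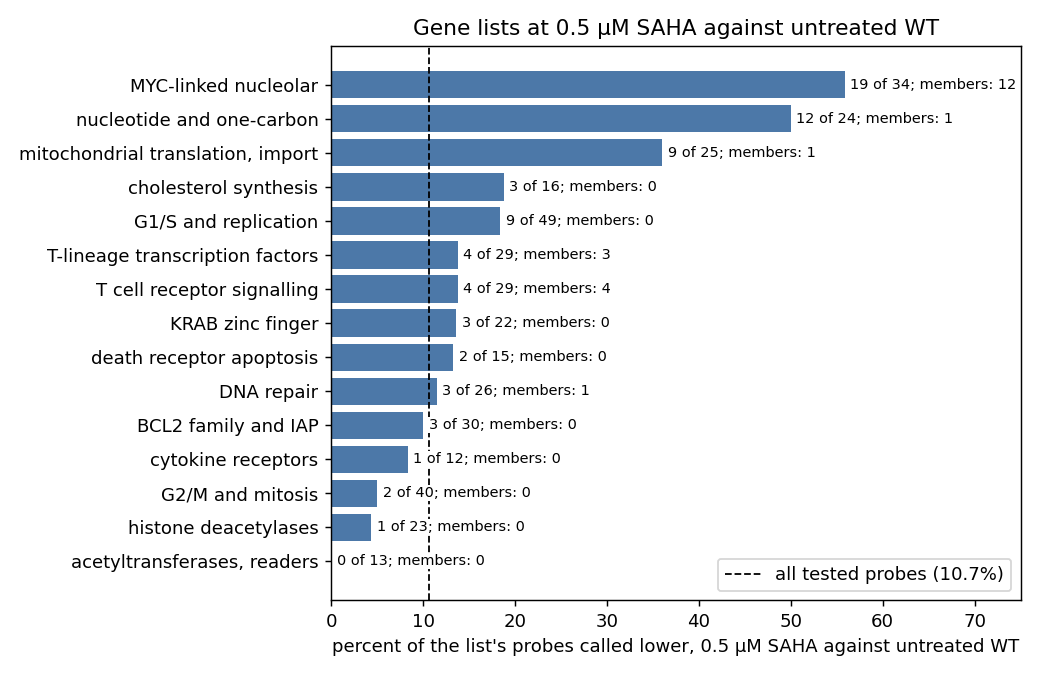
For each of 15 gene lists, the bar gives the percent of its tested probes called lower at 0.5 µM SAHA against untreated WT; labels give that count and the number of member probes, and the dashed line is the 10.7% of all tested probes. The lists were chosen with earlier results of these data known, and the nucleolar list reaches 55.9% and holds 12 members.

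Other lists held few members, and of all 13407 tested probes 208 were members. At that share a list of this size would hold few members or none, so these counts are not read as a result about a list. The uracil glycosylase UNG was the only one of 26 DNA repair probes, CAD, which opens pyrimidine synthesis, the only one of 24 nucleotide probes, and TIMM44, of the mitochondrial import motor, the only one of 25 mitochondrial ribosome and import probes. CAD fell 1.39-fold (limma adjusted p = 0.0189), UNG 1.38-fold (limma adjusted p = 0.012) and TIMM44 1.70-fold (limma adjusted p = 0.00248) at 0.5 µM against WT. The nucleotide list as a whole had 12 probes lower and 0 higher there, with a median of -0.36. Against untreated TR1 it had 2 lower and 0 higher, with a median of -0.07. CAD was not called there, with a change of -0.32 (limma adjusted p = 0.124), while UNG and TIMM44 were called lower. No member stood in the lists of G1/S genes (49 tested probes, 9 lower and 2 higher at 0.5 µM against WT) or G2/M genes (40 probes, 2 lower and 7 higher). Against untreated TR1, each of these lists had 1 probe lower and 1 higher. The lists of death receptors, BCL2 proteins, histone deacetylases, acetyltransferases, cholesterol synthesis, cytokine receptors and KRAB zinc fingers held 0 members as well.

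The members of the T cell receptor list were CD3E, CD3G, CD6 and ZAP70, 4 of 29 tested probes. CD3E, a signalling chain of the receptor, had 9.86 and 10.17 in untreated TR1, 9.57 and 9.60 at 0.5 µM, 8.90 and 9.03 at 1 µM, and 10.00 and 9.85 in untreated WT. Its 0.5 µM arrays lay below all untreated arrays, and the change against WT of -0.34 ± 0.13 missed the threshold (limma adjusted p = 0.0937). ZAP70 had 9.89 and 9.88 in untreated TR1, 9.59 and 9.27 at 0.5 µM, 9.09 and 8.97 at 1 µM, and 9.98 and 9.92 in untreated WT, and fell 1.43-fold at 0.5 µM against WT (limma adjusted p = 0.0209). CD3G had a change against WT of -0.22 (limma adjusted p = 0.486) and the co-receptor CD6 one of -0.29 (limma adjusted p = 0.141). Against untreated TR1, only CD6 of these members was called lower, with a change of -0.57 (limma adjusted p = 0.0359). There ZAP70 had a change of -0.45 (limma adjusted p = 0.0672), CD3E one of -0.43 (limma adjusted p = 0.0841) and CD3G one of -0.48 (limma adjusted p = 0.205). The whole list went both ways against WT, with 4 probes lower and 5 higher and a median of -0.06. Against untreated TR1, 2 probes were lower and 1 higher, with a median of -0.08.

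Beyond the lists, 14 members act in lymphocyte signalling or adhesion, and 12 of them fell at 0.5 µM against WT. They were grouped by function from the members after the values were seen, as were the groups that follow. No count of such genes among all tested genes was made, and each group's count stands beside 74.5% of all members called lower against WT and 64.9% against untreated TR1, so nothing particular to a group is read from it. PTPN6 (SHP-1), a phosphatase that damps receptor signals, had 11.48 and 11.56 in untreated TR1, 10.56 and 10.62 at 0.5 µM, 9.95 and 9.95 at 1 µM, and 11.05 and 11.41 in untreated WT. Its groups of TR1 arrays stood well apart, and it fell 1.56-fold at 0.5 µM against WT (-0.64 ± 0.13, limma adjusted p = 0.0106). PTPRCAP, which binds the phosphatase CD45, fell 1.56-fold (limma adjusted p = 0.0177), and the inhibitory receptor PVRIG 1.57-fold (limma adjusted p = 0.0061). CSK, which holds LCK inactive, fell 1.71-fold (limma adjusted p = 0.00528) and the integrin chain ITGB2 1.49-fold (limma adjusted p = 0.0106). Its partner ITGAL had a change of -0.38 (limma adjusted p = 0.11) and the adaptor LAX1 one of -0.17 (limma adjusted p = 0.301).

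A group of 7 members that act in transfer RNA modification was put together, and all 7 fell at 0.5 µM against WT and against untreated TR1. The group is not a full count of such members, and QTGAL, also a member, was left out of it. DUS3L, which forms dihydrouridine, had 10.56 and 10.51 in untreated TR1, 9.76 and 9.79 at 0.5 µM, 9.28 and 9.14 at 1 µM, and 10.78 and 10.56 in untreated WT. It fell 1.86-fold at 0.5 µM against WT (-0.89 ± 0.11, limma adjusted p = 0.0016). The pseudouridine synthases PUS1 and PUS7 fell 1.62-fold and 1.68-fold, the methyltransferase genes TRMT1 and TRMT61A 1.58-fold each, QTRT1 1.70-fold and WDR4 1.38-fold. A further 12 members take part in ribosome assembly or RNA polymerase I, and 7 of these fell against WT. POLR1G, whose promoter is shown above, had 7.79 and 7.85 in untreated TR1, 6.72 and 6.58 at 0.5 µM, 6.07 and 6.26 at 1 µM, and 7.76 and 7.30 in untreated WT, a fall of 1.84-fold at 0.5 µM against WT (limma adjusted p = 0.00682). EXOSC5 fell 1.55-fold, and both DPH2 probes fell, by 1.54-fold and 1.45-fold.

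Mitochondrial proteins accounted for 20 member genes with 22 probes, and 20 of the probes fell at 0.5 µM against WT, with a median of -0.71, beside -0.56 for all members. The list of mitochondrial ribosome and import genes held only 1 of them, TIMM44, among 25 tested probes. MTHFD1L, of mitochondrial folate metabolism, had 10.54 and 10.51 in untreated TR1, 9.91 and 9.98 at 0.5 µM, 9.38 and 9.49 at 1 µM, and 10.83 and 10.63 in untreated WT, a fall of 1.73-fold at 0.5 µM (limma adjusted p = 0.00225). NDUFB1, of respiratory complex I, fell 2.03-fold (limma adjusted p = 0.00225). Among 5 members for nutrient uptake, 3 fell against WT and 4 against untreated TR1. SLC7A5, an amino acid transporter, had 13.67 and 13.64 in untreated TR1, 13.12 and 13.03 at 0.5 µM, 12.79 and 12.78 at 1 µM, and 13.52 and 13.55 in untreated WT. It fell 1.38-fold at 0.5 µM against WT (limma adjusted p = 0.011). The member probe of its partner chain SLC3A2 had a change of -0.40 (limma adjusted p = 0.217). Another SLC3A2 probe, ILMN_1726456, is no member and was called lower. Its change was -0.47 against WT (limma adjusted p = 0.0101) and -0.45 against untreated TR1 (limma adjusted p = 0.0277). The folate carrier SLC19A1 fell 1.73-fold (limma adjusted p = 0.00573). HSPA5, the main chaperone of the endoplasmic reticulum, fell 1.51-fold at 0.5 µM against untreated TR1 (limma adjusted p = 0.0118), and against WT its change was -0.31 (limma adjusted p = 0.0583).

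Among the members that were lowest at 1 µM, ARFGAP1, which switches off the Golgi GTPase Arf1, fell 1.76-fold at 0.5 µM against WT (limma adjusted p = 0.00225). At the other end, 5 member probes moved least at 0.5 µM against untreated TR1: those of HNRNPA3, MICALL1 and NUP188, and 1 each of PCBD1 and GAR1. NUP188 had 9.66 and 9.80 in untreated TR1, 9.58 and 9.42 at 0.5 µM, 8.86 and 9.06 at 1 µM, and 9.86 and 9.69 in untreated WT. Its 0.5 µM arrays lay below all untreated ones, and its change against WT was -0.28 (limma adjusted p = 0.144). MICALL1, of endocytic recycling, had 7.57 and 7.65 in untreated TR1, 7.52 and 7.17 at 0.5 µM, 6.56 and 6.58 at 1 µM, and 7.64 and 7.46 in untreated WT. Its 0.5 µM arrays overlapped those of WT. The splicing-related HNRNPA3 fell 1.39-fold against WT (limma adjusted p = 0.0267), with a change against untreated TR1 of -0.24 (limma adjusted p = 0.275).

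Probes for the same gene did not always move together. In 8 genes more than 1 probe was a member, 17 probes in all. Another 36 probes for 23 member genes were not members, and 22 of these were tested, of which 8 were called lower and 1 higher at 0.5 µM against WT. For PTPN6, neither of the other probes passed the test against untreated TR1, where ILMN_1716578 had a change of -0.16 (limma adjusted p = 0.341) and ILMN_1664122 one of -0.04 (limma adjusted p = 0.881). Their mean log2 signals in untreated TR1 were 5.29 and 5.08, near the lowest detected signals there of 5.13 and 5.23. A fall from that level could hardly be seen, so these probes do not decide whether the transcript fell. Against WT, ILMN_1716578 had a change of -0.51 (limma adjusted p = 0.0085), of which -0.35 stood between the untreated lines, and ILMN_1664122 one of -0.16 (limma adjusted p = 0.445). For UNG, ILMN_1735719 was not well above background on either 0.5 µM array, so only a bound can be given, at least 1.53-fold lower than in WT (limma adjusted p = 0.00826). ILMN_1722769, also for UNG and detected on both arrays of every group, had a change against WT of 0.04 (limma adjusted p = 0.916). Its change against untreated TR1 was -0.32 (limma adjusted p = 0.395). Probes of the translation factor EEF1B2 split at 0.5 µM against WT. Its member probe ILMN_1790271 fell by 0.77 (limma adjusted p = 0.0021), and ILMN_1701930 had a change of -0.48 (limma adjusted p = 0.025). ILMN_1705714 had 14.24 and 14.13 at 0.5 µM, against 14.16 and 14.10 in WT, a change of 0.06 (limma adjusted p = 0.709). The probe called higher, ILMN_1684984 for MAGED2, was not well above background on either WT array, and untreated TR1 was already higher than WT there (limma adjusted p = 0.0327). Its change at 0.5 µM against untreated TR1 was 0.48 (limma adjusted p = 0.188).

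Member genes were spread over the chromosomes unevenly. Chromosome 19 carried 28 of the 190 (14.7%) and 7.26% of the tested genes. Chromosomes 11 and 17 carried 16 each (8.42%), with 6.12% and 6.11% of tested genes. No member gene lay on chromosomes 13 or 18, which carry 1.79% and 1.31% of tested genes.

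**Figure D5:**
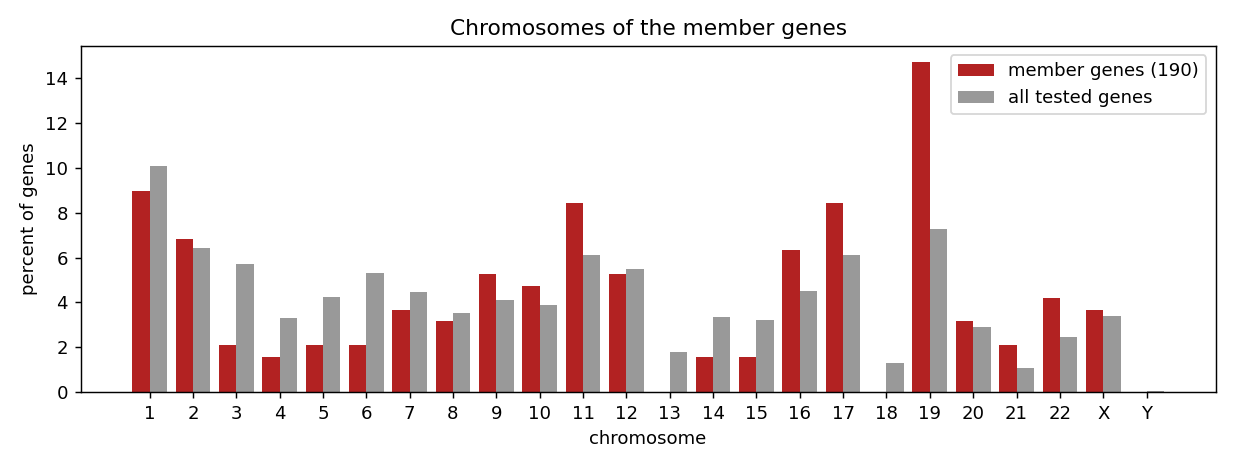
Percent of the 190 member genes and of all tested genes on each chromosome. Chromosome 19 holds 14.7% of member genes and 7.26% of tested genes.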

How the data were processed

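The deposited table gives for each array a probe intensity on a linear scale, not normalized, with a detection p-value beside it, per the file headers. RNA was amplified and hybridised to Illumina HumanRef-8 BeadChips, per the labels' protocols. limma is named in the submitters' processing notes, and no source used here gives the program that extracted the intensities. A second deposited table holds the authors' intensity values after quantile normalization, as found from the values.

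Columns carry a group name and a letter A or B, so they were assigned to groups only. No column belonged to another series (0). Intensities were background-corrected from the detection p-values (normexp, offset 16), quantile-normalised and taken to log2 with limma 3.58.1 in R 4.3.3. Probes with a detection p-value below 0.05 on at least 2 of the 8 arrays were tested (13407). All arrays entered 1 limma fit (lmFit, eBayes) with a mean per group, 4 residual and 4.22 prior degrees of freedom. Tests were two-sided, and calls used a Benjamini-Hochberg adjusted p below 0.05 over all tested probes. The number of arrays limits the precision (median SE of a log2 change, 0.127). The fit was tested on simulated data.

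Genes came from the platform annotation (19715 probes with 1 gene, 0 with several, 2469 with none, 9 of them members), and 19695 matched RefSeq by gene number. Member levels were not compared between probes. Lists, members and motifs were chosen with earlier results of these data known. Genes named by rule were the 12 lowest members at 1 µM, the 10 lowest called members at 0.5 µM against WT, the 5 that moved least at 0.5 µM against untreated TR1, 3 on each side of the limit, members in a list, and other probes of member genes. Genes of the functional groups outside the lists were chosen after their values were seen. Alternatives were other background, scaling, filter and variance settings, the deposited normalized values, a replicate block and leaving out each array. Promoters came from RefSeq (GRCh38.p14), and motifs were counted with Python 3.11.15.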

Additional observations from a re-analysis of the deposited data

How the results depend on the processing

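At 0.5 µM the number of members called lower against untreated TR1 was 14 to 150 when an array was left out and 125 to 198 in the other settings. Against untreated WT it was 82 to 156 and 135 to 186. Leaving out an array of the groups compared leaves 1 array there, whose spread is taken to equal that of the other groups. The number of all tested probes called lower moved too, over 36 to 441 and 323 to 956 against untreated TR1, and over 529 to 1357 and 1001 to 2025 against WT. The median change of the members moved by less than the spread between arrays in these settings, and every member stayed below 0 in all settings with all arrays.

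The rule itself found 350 members with background-corrected values, 42 with a limit of 1 for the fall, 152 with arrays scaled to the same median, and 190 to 234 when an array was left out. With a replicate block by the letters A and B, 155 members were called against untreated TR1 and 165 against WT. With a replicate block by the labels' numbers on the authors' normalized values, added after the data were seen, there were 198 and 186. The labels do not say that letters or numbers pair the samples. The differences between arrays A and B correlated between all pairs of groups by 0.0903 to 0.276, and by 0.216 to 0.276 among the 3 TR1 groups. Arrays of the same letter thus deviated together to a small extent, and what they share was not tested. Dim probes near the lowest detected signal are limited in how far they can be seen to fall.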
